A study of Mus musculus with 6 samples.

Results

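The C/D box small nucleolar RNAs (snoRNAs) of mouse cerebellum were taken as every gene symbol that starts with Snord followed by a digit. Of 24537 genes listed, 74 symbols matched. Of these, 52 were listed at 0 in all 6 libraries and were dropped, and 22 were above 0 in at least 1 library. All 6 libraries were made from cerebellum of males 6 weeks old. Of these, 3 were labelled wild type with the strain C57BL/6, and 3 were labelled Reln HET, heterozygous for a Reelin null allele, with the strain Orl/BalbC (HET libraries below). Genotype and labelled strain therefore cannot be told apart in any difference given here. The labels do not say whether libraries of a group are separate animals, so the spread between libraries, on which p-values rest, may be technical. The main test, limma, also takes spread from other genes of like level. It had 54.4 prior degrees of freedom (median) from those genes, against 4 from the libraries. Total RNA was made into stranded libraries and sequenced as single-end reads of 75 bases.

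C/D box snoRNAs are short nuclear RNAs that carry a C box near the 5′ end and a D box near the 3′ end, and they bind fibrillarin (Fbl), Nop56, Nop58 and Snu13. Most guide the ribose methylation of ribosomal RNA, a few that of spliceosomal RNA, and some act in the cleavage of the ribosomal RNA precursor. In mammals most are cut out of introns of a host gene after splicing, and many hosts encode ribosomal proteins or are noncoding RNAs whose introns are their main known product. The Snord116 family, of the imprinted Snhg14 transcript, is known for its expression in neurons.

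The sequences of the 4 members with the most reads and of Snord8 are shown, because the results below turn on them. Sequences and positions are those of GENCODE M21 on GRCm38, 5′ to 3′ as DNA letters. Capitals mark the C box (ATGATGA or GTGATGA starting within the first 25 bases) and the last D box (CTGA ending within the last 25 bases).
Snord17: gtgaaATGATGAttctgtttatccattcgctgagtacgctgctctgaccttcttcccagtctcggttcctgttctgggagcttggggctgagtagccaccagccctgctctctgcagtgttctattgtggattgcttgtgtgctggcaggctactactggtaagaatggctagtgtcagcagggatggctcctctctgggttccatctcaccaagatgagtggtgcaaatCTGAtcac
Snord15a: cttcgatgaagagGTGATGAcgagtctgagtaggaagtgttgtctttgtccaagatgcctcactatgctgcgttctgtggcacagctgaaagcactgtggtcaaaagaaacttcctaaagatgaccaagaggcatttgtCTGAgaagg
Snord15b: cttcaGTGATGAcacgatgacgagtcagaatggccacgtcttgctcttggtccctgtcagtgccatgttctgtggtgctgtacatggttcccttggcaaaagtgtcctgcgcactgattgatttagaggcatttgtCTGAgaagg
Snord22: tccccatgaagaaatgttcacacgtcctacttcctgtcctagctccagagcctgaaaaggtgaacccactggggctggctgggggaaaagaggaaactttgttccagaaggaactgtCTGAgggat
Snord8: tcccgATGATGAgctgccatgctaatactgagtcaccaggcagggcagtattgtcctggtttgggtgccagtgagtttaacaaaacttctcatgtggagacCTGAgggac
Snord17 lies at chr2:144265979-144266216 on the minus strand, in an intron of the sorting nexin gene Snx5. Snord15a (chr7:99482785-99482932) and Snord15b (chr7:99479563-99479707) lie on the minus strand within Rps3, a gene for a protein of the small ribosomal subunit. Snord15a is intronic, and Snord15b also overlaps an exon of a noncoding or retained-intron transcript of Rps3. Snord22 (chr19:8725866-8725991, plus strand) overlaps an exon of the noncoding host Snhg1. Snord8 (chr14:52209785-52209894, minus strand) is in an intron of the chromatin remodeller gene Chd8. The annotation places Gm26590 on the strand opposite Snord8. The strand setting of the authors' counting is not given in the sources used here, so reads of the 2 strands cannot be told apart there. Snord15a and Snord15b were identical at 66% of alignment positions, and their longest shared run was 21 bases, shorter than a read of 73 bases after trimming.

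Of 72 members with a sequence in the annotation, 71 (98.6%) had the D box and 44 (61.1%) the C box in these windows, and 43 (59.7%) had both. On the opposite strand the values were 6 and 0 of 72. Among 40 H/ACA snoRNAs of the same annotation, 5 had the D box and 0 the C box. Among 32817 promoter windows cut to 80 bases, the median member length, 0.0457% held both. Snord22 and 6 others of the 21 members above 0 with a sequence lacked these exact C box letters, which says only that the letters are not in that window.

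The deposited unit, FPKM (fragments per kilobase of exon, scaled to the mapped fragments of the library), could be turned into whole reads for these short genes. With the gene's RefSeq length (GRCm38.p6) and 1 depth per library, 157 of 158 values of snoRNA genes between 0.5 and 12 reads came within 0.05 of a whole number. The depths that gave this were 28398000, 26868000 and 28606000 reads for wild-type libraries 1, 2 and 3, and 25134000, 27101000 and 22888000 reads for HET libraries 1, 2 and 3. RefSeq gives 221 bases for Snord17 and 99 for Snord8, less than the 238 and 110 of the sequences printed. In a total RNA library, reads from an unspliced host RNA that cover a snoRNA cannot be told apart from reads of the snoRNA itself. Reads carry no molecular identifiers, so the intervals and floors below cover counting error only.

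Most C/D box snoRNAs were at or near the limit of these libraries. Whole reads were recovered for 19 members, and they summed to 6618 reads over all 6 libraries. Snord17 held 5499 of these, Snord15b 889, Snord22 119 and Snord15a 42. The other 15 members had between 1 and 17 reads each in all 6 libraries together, and 5 of them (Snord1b, Snord1c, Snord49b, Snord67 and Snord71) had 1 read. Those 15 members had 6, 19 and 15 reads in wild-type libraries 1, 2 and 3, and 4, 16 and 9 in HET libraries 1, 2 and 3, so the groups overlapped. Members with at least 1 read numbered 8, 14 and 13 in wild type and 7, 10 and 9 in HET libraries.

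By RefSeq length, members with reads were mostly the longer ones. Of 71 members compared by RefSeq length, 42 were shorter than a trimmed read of 73 bases, of which 3 were above 0, with 5 reads in all. The other 29 were at least 73 bases long, 16 of them were above 0, and they held 6613 reads. The median length was 84 bases for the 19 members with reads and 64.5 bases for the 52 without. Of the 5 members of at least 100 bases in RefSeq, the 4 named above had the most reads of all. The fifth was Snord118, also called U8, which acts in maturation of the large-subunit ribosomal RNAs. It is 137 bases long and was listed at 0 in every library, where 3 reads would have been 0.765 to 0.957 FPKM. The length pattern depends on the annotation, since more members reach 100 bases in GENCODE. Of these, Snord23, Snord43 and Snord90 (109, 108 and 111 bases) were at 0. Snord8, Snord67 and Snord89 (110, 111 and 110 bases) had 4, 1 and 3 reads. Snord104, with 15 reads, is 73 bases long in RefSeq and 70 in GENCODE. Among H/ACA snoRNAs, the class that guides pseudouridine formation, 29 of 36 listed symbols were above 0.

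**Figure D1:**
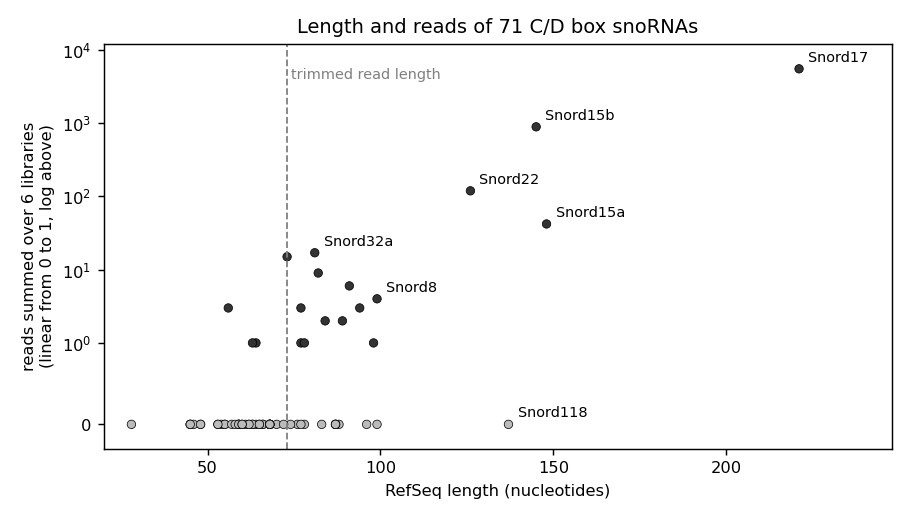
Length in RefSeq (x axis, nucleotides) against reads summed over 6 libraries (y axis, linear from 0 to 1 and logarithmic above) for 71 C/D box snoRNAs, with members at 0 in grey and a dashed line at the trimmed read length of 73 bases. The 4 members with the most reads are all longer than 100 bases, and Snord118 at 137 bases lies at 0.

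Snord17, a guide for methylation of large-subunit ribosomal RNA, was the most abundant member, at 120, 228 and 124 FPKM in wild-type libraries 1, 2 and 3 (753, 1351 and 784 reads). Its level was 181, 67.0 and 238 FPKM in HET libraries 1, 2 and 3 (1005, 401 and 1205 reads). The groups overlapped fully, since the lowest and the highest library were both from the HET group. The means were 157 ± 61.0 FPKM in wild-type libraries and 162 ± 87.2 FPKM in HET libraries (SD, n = 3 each). On the scale of the test, mean log2(FPKM + 1), HET minus wild type, the difference was -0.075 (SE 0.25, limma adjusted p = 0.94). The difference turned to 0.22 without wild-type library 2 and to 0.46 without HET library 2.

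Snord15b, like Snord15a a guide for large-subunit ribosomal RNA, varied least of the 4. Its values were 32.5, 45.9 and 37.9 FPKM in wild-type libraries 1, 2 and 3 (134, 179 and 157 reads) and 29.6, 44.3 and 41.3 FPKM in HET libraries 1, 2 and 3 (108, 174 and 137 reads). The means were 38.8 ± 6.8 and 38.4 ± 7.7 FPKM (SD, n = 3 each), a log2 change, HET minus wild type, of -0.020 (SE 0.18, limma adjusted p = 0.98). Its highest value was 1.55 times its lowest, against 3.56 times for Snord17. Without wild-type library 2 or HET library 1 the difference turned to 0.11 or 0.15.

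Snord22, which is needed for maturation of the small-subunit ribosomal RNA, was measured at 3.63, 10.6 and 5.27 FPKM in wild type (13, 36 and 19 reads) and at 5.68, 4.39 and 6.24 FPKM in HET libraries (18, 15 and 18 reads). Wild-type library 2 was above all other libraries, which did not separate by group. The log2 difference of -0.12 (SE 0.17, limma adjusted p = 0.90) turned to 0.25 without that library.

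Snord15a was lower in the HET libraries and was the member that passed the test. Its values were 1.43, 3.77 and 2.13 FPKM in wild-type libraries 1, 2 and 3, from 6, 15 and 9 reads, and 0.538, 0.997 and 1.77 FPKM in HET libraries 1, 2 and 3, from 2, 4 and 6 reads. Wild-type library 1 and HET library 3 held the same number of reads, and the groups overlapped. The exact 95% Poisson interval was 0.24 to 7.2 reads in HET library 1 and 8.4 to 24.7 in wild-type library 2. The difference in mean log2(FPKM + 1) was -0.70 (SE 0.14, limma adjusted p = 0.014). The two-sided exact permutation p was 0.2, where 3 against 3 libraries cannot go below 0.1. Counting error alone gave the same difference an SE of 0.28, larger than limma's 0.14, whose spread had 54.4 prior degrees of freedom (median), taken from genes of like level, against 4 from the libraries. With 0.1 in place of 1 FPKM added before the logarithm the difference was -1.11 (limma adjusted p = 0.025). The call was lost without wild-type library 2 (-0.43, limma adjusted p = 0.9991) and without HET library 1 (-0.49, limma adjusted p = 0.097). It was also lost under each of the 3 other scalings of the libraries (limma adjusted p = 0.78 to 0.80).

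Against its neighbour in the same host, Snord15a made up 4.29%, 7.73% and 5.42% of the reads of the pair in wild-type libraries 1, 2 and 3 (95% Wilson intervals 1.98% to 9.03%, 4.74% to 12.4% and 2.88% to 9.98%). It made up 1.82%, 2.25% and 4.20% in HET libraries 1, 2 and 3 (0.50% to 6.39%, 0.877% to 5.63% and 1.94% to 8.85%). The lowest wild-type share was just above the highest heterozygous one, and the intervals of those 2 libraries overlapped almost wholly. The mean share was 5.81% ± 1.76 in wild type and 2.75% ± 1.27 in HET libraries (SD, n = 3 each, two-sided exact permutation p = 0.1, the smallest possible). This share was chosen for comparison after its values were seen.

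**Figure D2:**
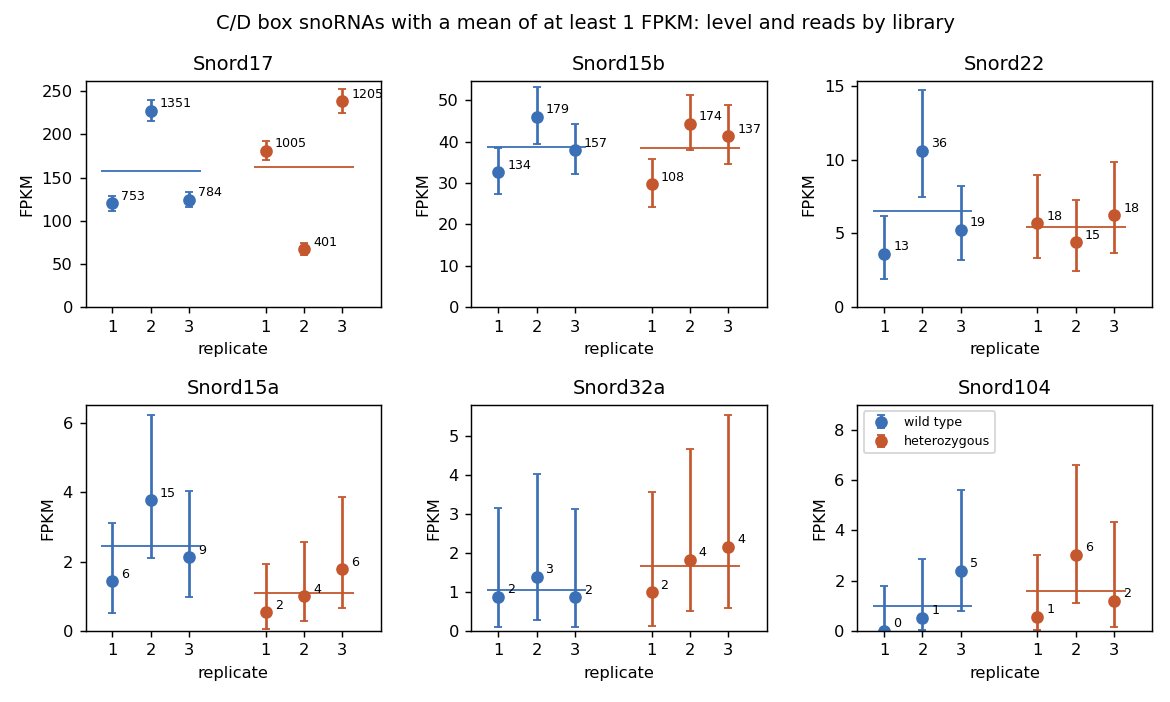
FPKM (y axis, from 0) in each library (x axis, replicate 1 to 3, wild type in blue and heterozygous in orange) of the 6 members with a mean of at least 1 FPKM. Bars are exact 95% Poisson intervals of the reads, the number beside each point is its reads, and lines are group means. Snord15a spans 2 to 15 reads, and Snord17 is lowest and highest in HET libraries 2 and 3.

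Over all genes, 6358 had a mean of at least 1 FPKM and were tested. Of these 5 passed an adjusted p of 0.05 in limma (0.0786%), 4 of them lower in HET libraries (0.0629%), and 1 higher (0.0157%). The count was 62 without wild-type library 1, 42 without HET library 3, 16 to 19 without wild-type library 3, HET library 1 or HET library 2, and 5 without wild-type library 2. Of the 22 members 6 were tested, 1 was lower and 0 were higher. An unadjusted p under 0.05 in limma was reached by 3 of the 6 (Snord15a, Snord32a and Snord104), against 3.33% of all genes tested. The median of the 6 was -0.048, against 0.083 over all genes tested, with 2 higher and 4 lower means. Here and below, counts of higher and lower genes go by the mean of log2(FPKM + 1). Snord17 and Snord16a were lower on that scale. Their mean FPKM was higher in HET libraries (162 against 157 and 0.4055 against 0.3924). The order of the 2 medians turned when wild-type library 2 was left out, to 0.23 for the members against 0.013 for all genes tested. Over all 22 members 5 averaged higher and 17 lower in HET libraries, while 67.6% of the 19511 genes above 0 had a higher mean. The 17 include 3 rows of identical values (Snord116, Snord116l1 and Snord116l2, -0.00029 each), from which no snoRNA level could be read. Members with 1 read in all stand among the 17 (Snord1c, Snord49b and Snord67) and among the 5 (Snord1b and Snord71). Without wild-type library 2, the library with the most member reads, 9 members were higher and 11 lower. Among the 29 H/ACA snoRNAs above 0, 11 averaged higher and 18 lower in HET libraries. Of the 10 tested, 1 was called lower and 3 reached an unadjusted p under 0.05 (limma), with a median of -0.12. Nuclear long noncoding RNAs also had lower means in the HET libraries, in 4 of 4 listed genes (Malat1, Meg3, Neat1 and Kcnq1ot1). Their summed level was 435 to 694 FPKM in the wild-type group against 310 to 438 FPKM in the HET group. Of the 3 tested, 0 passed and 3 reached an unadjusted p under 0.05 (limma), with a median of -0.65, and their part in the results for the snoRNAs was not tested. The summed FPKM of all members was 160, 296 and 176 in wild type and 219, 124 and 293 in HET libraries, so the groups overlapped. Snord17 held 65.7% to 88.4% of the reads behind these sums.

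Snord32a and Snord104, both guides for ribosomal RNA methylation, passed the level for testing on very few reads. Snord32a had 2, 3 and 2 reads in wild type and 2, 4 and 4 in HET libraries. Its log2 difference was 0.36 (SE 0.11, limma adjusted p = 0.52), with a counting SE of 0.39. Snord104 had 0, 1 and 5 reads in wild type and 1, 6 and 2 in HET libraries, a log2 change, HET minus wild type, of 0.47 (SE 0.19, limma adjusted p = 0.90). Both groups of each overlapped. On these reads limma gave calls when libraries were left out: Snord104 passed without wild-type library 3 (0.96, limma adjusted p = 1.2e-17), HET library 1 (0.79, limma adjusted p = 1.3e-08) or HET library 3 (0.53, limma adjusted p = 9.6e-05), and Snord32a without HET library 1 (0.56, limma adjusted p = 0.0022). The difference of Snord104 was 0.080 without wild-type library 1 and 0.096 without HET library 2, with no call. For Snord17 and Snord15b the order of the errors was the other way, with counting SEs of 0.042 and 0.096 against 0.25 and 0.18 in limma.

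Snord8, known as a guide for a spliceosomal RNA, was the 1 member whose groups did not overlap. It had 1, 2 and 1 reads in wild-type libraries 1, 2 and 3 (0.356, 0.752 and 0.353 FPKM) and was at 0 in all 3 HET libraries. The floor used here for a count of 0, 3 reads, was 1.21, 1.12 and 1.32 FPKM in HET libraries 1, 2 and 3. It was above every wild-type value, so no fold is given and a difference was not detectable at this depth. The two-sided exact permutation p was 0.1, the smallest possible, and Snord8 lay under the level for testing over all genes. Among the 19511 genes above 0, groups did not overlap in 5.96%, and all wild-type libraries were the higher ones in 1.53%. Of the 13153 genes above 0 with a mean under 1 FPKM, 24 (0.182%) had values above 0 in all wild-type and in no heterozygous library, and 25 (0.190%) the reverse.

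The remaining members with several reads were as sparse. Snord33, from the same host Rpl13a as Snord32a, had 2, 5 and 1 reads in wild type and 0, 0 and 1 in HET libraries (exact permutation p = 0.2). Snord33 and Snord32a thus leaned opposite ways on a few reads. Snord35a, also in Rpl13a, had 0, 1 and 1 reads in wild type and 0 in every HET library. Snord34, in Rpl13a too, was at 0 in every library. Snord16a, in the ribosomal protein gene Rpl4, had 0, 1 and 2 reads in wild type and 0, 3 and 0 in HET libraries. Over all 6 libraries Snord83b, Snord89 and Snord99 had 3 reads each, and Snord35a and Snord88c had 2 each. Snord1b and Snord1c, 97.4% identical, had 1 read each, in different groups.

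The 3 rows named Snord116, Snord116l1 and Snord116l2 held values that do not correspond to the length of a snoRNA. Their values were identical in every library, 0.00244 to 0.00312 FPKM, which at the RefSeq length of 90 bases would be less than 1 read. The smallest set of whole reads that fits all 6 values was 16, 19 and 19 in wild type and 17, 15 and 13 in HET libraries, and it implies a length of 226773 bases. The sequences of Snord116l1 and Snord116l2 were identical over all 94 bases. The level of the Snord116 snoRNAs was therefore not readable from these files. Their host Snhg14 stood at 5.70 to 6.34 FPKM in wild-type libraries and 5.45 to 6.27 FPKM in HET libraries.

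Host genes were compared next. Of 73 members with 1 position in the annotation, 71 lay within a gene on the same strand, 53 of them in a protein-coding one. The host was listed in the files for 68, giving 47 distinct hosts. Of these 40 were tested, 35 with a higher and 5 with a lower mean in HET libraries, and 0 passed (3 at an unadjusted p under 0.05, limma). Their median difference was 0.15, against 0.083 over all genes tested.

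Rps3, the host of Snord15a and Snord15b, was measured at 33.6, 29.5 and 27.8 FPKM in wild-type libraries and 36.3, 36.4 and 35.5 FPKM in HET libraries, without overlap, a log2 change, HET minus wild type, of 0.25 (SE 0.17, limma adjusted p = 0.90). Among genes tested, 5.55% had groups that did not overlap. The host thus had the higher mean in HET libraries, as most genes tested did, and Snord15a the lower one. The log2 difference of Snord15a relative to Rps3 was -0.95, and that of Snord15b relative to Rps3 was -0.27. Neither passed (two-sided exact permutation p = 0.2 and 0.4, adjusted p = 0.83 for both over 5 pairs of snoRNA and host). Rpl13a, the host of Snord32a, Snord33 and Snord35a, was likewise without overlap, with 49.0, 45.5 and 44.9 FPKM against 55.9, 62.6 and 55.3 FPKM (0.31, limma adjusted p = 0.90). The other pairs, Snord17 with Snx5, Snord22 with Snhg1 and Snord32a with Rpl13a, gave -0.16, -0.36 and 0.053 (exact permutation adjusted p = 0.90, 0.83 and 0.90).

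**Figure D3:**
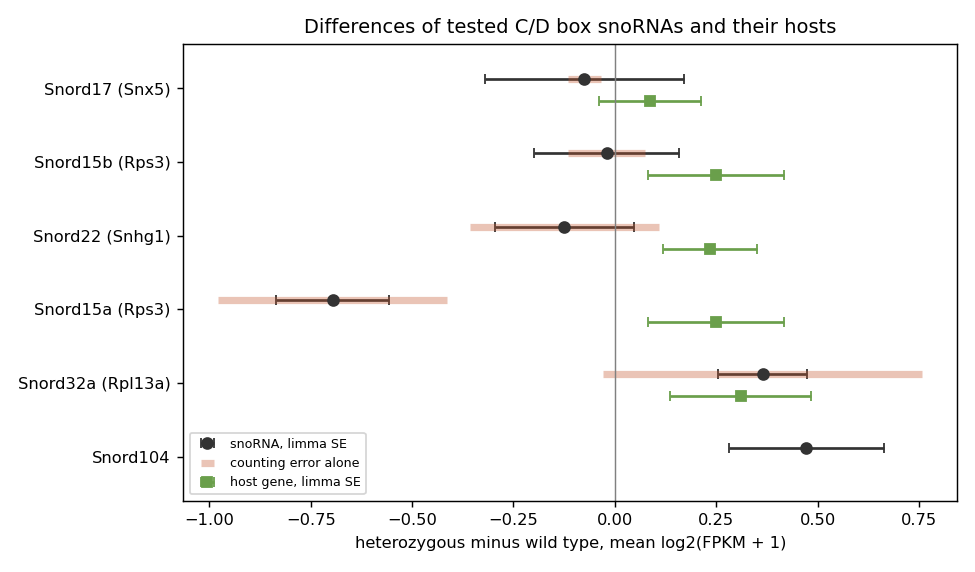
Difference in mean log2(FPKM + 1), HET minus wild type (x axis), of the 6 tested snoRNAs (circles) and the host named in brackets (squares), with limma's SE as thin bars and the SE from counting reads alone as wide bars. Counting error is wider than limma's SE for Snord15a, Snord32a and Snord22, and is not drawn for Snord104, which had a library at 0. Snord104 has no host on its strand.

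Members at 0 included many within abundant hosts. Hosts listed for 17 members with whole reads had a median of 4.69 FPKM (range 0.428 to 60.5), and hosts of 49 members at 0 had a median of 9.46 FPKM (range 0.0927 to 637). Snord14c and Snord14d lie within Hspa8, the constitutive heat shock chaperone gene at a mean of 637 FPKM, and were at 0 in every library. So were Snord37 in the elongation factor gene Eef2 (157 FPKM), Snord2 in the initiation factor gene Eif4a2 (96.0 FPKM) and Snord42a, Snord42b and Snord4a in Rpl23a (80.0 FPKM). For Snord37, 53 bases in RefSeq, 3 reads would have been 1.98 to 2.47 FPKM. Snord37, Snord2, Snord42a, Snord42b and Snord4a (45 to 70 bases in RefSeq) are all shorter than a trimmed read of 73 bases. Of 42 such members only 3 had reads, so a 0 there does not show that the snoRNA was absent. Snord14c and Snord14d are 87 bases long in RefSeq. In contrast to these hosts, Snx5 stood at 3.16 ± 0.48 FPKM in wild-type libraries and 3.40 ± 0.30 FPKM in HET libraries (SD, n = 3 each). Its Snord17 was 18.15 to 84.91 times as high per length.

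The spread of Snord17 between libraries ran with that of other abundant structural RNAs, which were picked after their values were seen. From lowest to highest, the order for Snord17 was heterozygous 2, wild type 1, wild type 3, heterozygous 1, wild type 2 and heterozygous 3. Rmrp and Rpph1, the RNA parts of the processing enzymes RNase MRP and RNase P, had the same order except that wild-type libraries 1 and 3 changed places. Rmrp ranged from 1921 to 3875 FPKM and Rpph1 from 2230 to 8653 FPKM, and the highest value was 2.02 and 3.88 times the lowest. Snord17 was 5.78% to 6.64% of Rmrp in 5 libraries and 3.49% in HET library 2. All small RNA genes together took 10.2%, 21.6% and 10.5% of the summed FPKM in wild-type libraries 1, 2 and 3 and 14.6%, 7.34% and 21.7% in HET libraries 1, 2 and 3. That share had the same lowest and highest library as Snord17. It counts Snord17, Rmrp and Rpph1 themselves, so this is no separate observation. The part of that share in the result was not tested. Snord15b had another order, with HET library 1 lowest and wild-type library 2 highest.

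**Figure D4:**
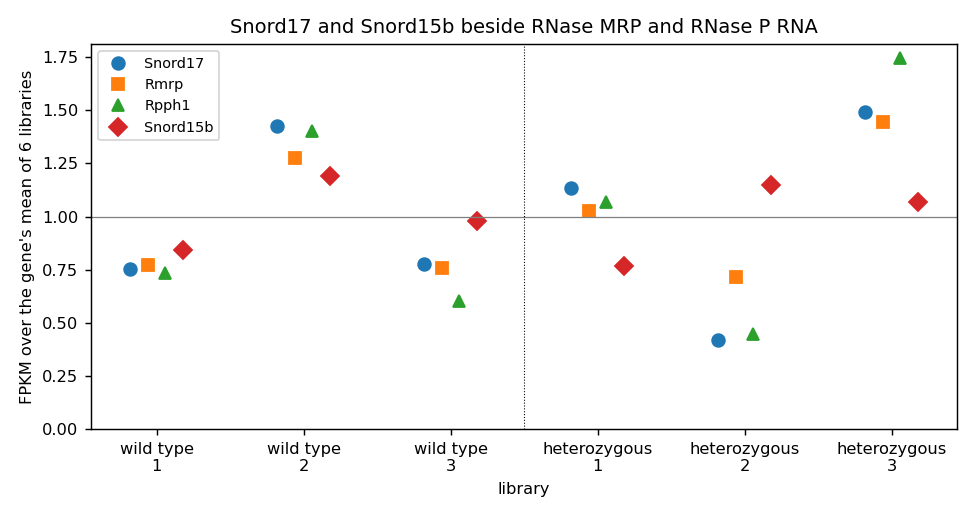
FPKM divided by the gene's own mean of 6 libraries (y axis, from 0) for Snord17, Snord15b, Rmrp and Rpph1 in each library (x axis). Snord17, Rmrp and Rpph1 are lowest in HET library 2 and highest in HET library 3, while Snord15b is lowest in HET library 1 and spans the narrowest range of the 4.

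No gene for a protein that binds, assembles or trims C/D box snoRNAs passed the test. Of the core proteins, the methyltransferase gene Fbl stood at 0.993 ± 0.162 and 1.08 ± 0.28 FPKM in wild-type libraries and HET libraries, Nop56 at 11.4 ± 1.6 and 11.2 ± 2.2, Nop58 at 1.09 ± 0.19 and 1.09 ± 0.20, and Snu13 at 11.1 ± 1.7 and 13.0 ± 1.7 FPKM (SD, n = 3 each). Of 23 genes listed for the core, assembly, the U3 particle and processing, 16 were tested, 15 with a higher mean in HET libraries, as 5284 of all 6358 genes tested had. Of these 0 passed, with 0 at an unadjusted p under 0.05 (limma), and their median was 0.080. Examples are the assembly factor gene Znhit3 (0.22, SE 0.12) and the lariat debranching enzyme gene Dbr1 (0.054, SE 0.10). Of the 6 H/ACA protein genes listed, 3 were tested and 0 passed, with 0 at an unadjusted p under 0.05 (limma).

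The labels were checked on marker genes. Reln stood at 0.771 to 0.940 FPKM in wild-type libraries and at 0.509 to 0.580 FPKM in HET libraries. The summed level of 6 cerebellar markers (Cbln1, Cbln3, Gabra6, Pcp2, Calb1 and Car8) was 515 to 608 FPKM in wild-type libraries and 602 to 617 FPKM in HET libraries, and the highest value of 4 forebrain neuron markers was 1.08 FPKM. The sum of 4 choroid plexus markers ranged from 0.775 to 284 FPKM in wild-type libraries and from 3.54 to 162 FPKM in HET libraries and so varied widely within both groups, and its part in the results was not tested. In whole tissue, fewer cells of a type and less RNA per cell cannot be told apart.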

How the data were processed

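The deposited values are FPKM, 1 library per file, under a header that names the column rpkm. Per the labels' protocols, mitochondrial and ribosomal sequences were filtered out by the authors, 2 bases were trimmed from each read, reads were aligned to mm10 with TopHat2 and Bowtie 1, and genes were quantified with Cufflinks. The authors' Cuffdiff 2.1.1 comparison was not used. Their versions, the gene models and how strand was handled are not stated in those protocols. In 1 file 40 values are not numbers, none of a member, and those genes were left out. FPKM divides by library size, so RNAs of changing share shift all other genes.

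Reads were computed as FPKM times RefSeq length times a depth, chosen per library so that snoRNA values came out whole. Whole reads were not recovered for all genes, so no count test was run. Genes whose mean reached 1 FPKM were tested on log2(FPKM + 1) by limma 3.58.1 (R 4.3.3, variance trend on level), p-values were adjusted by Benjamini-Hochberg with a threshold of 0.05, and the script was tested on simulated data. Permutation tests were exact and two-sided. Hosts were genes of GENCODE M21 whose span contains the snoRNA on the same strand. Named genes were Snord15a, Snord8, members past the threshold, the 10 most abundant, those tested without overlap, their hosts and the core proteins, and others are named where counts required it. The members and lists were chosen with earlier results of these data known. Python 3.11.15, pandas 2.3.3, scipy 1.17.1 and matplotlib 3.10.9 were used.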

Additional observations from a re-analysis of the deposited data

How the results depend on the processing

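Of 15 alternatives, Snord15a stayed lower in 15 and past the threshold in 7. Its difference was -0.70 with no filter, with a minimum of 0.5 FPKM and with no intensity trend, -0.78 after median-of-ratios scaling, -0.75 after quantile normalization and -0.79 after rescaling without small RNA genes, none past the threshold (limma adjusted p = 0.97, 0.94, 0.88, 0.78, 0.80 and 0.79), and -0.92 to -0.43 when single libraries were left out. Adding 0.1 in place of 1 FPKM gave -1.11 for Snord15a, 1.37 for Snord104 (from 0.47) and -2.49 for Snord8 (from -0.56), so the size of these differences depends on the value added. With no filter or a lower minimum more genes of few reads are tested. With no filter, limma's SE for Snord15a was 0.32, against 0.14 in the main fit. Its unadjusted limma p was 0.079, against 6.4e-06 in the main fit. Why the call was lost in the first 6 alternatives named was not tested. In these 6 alternatives 0 members passed. Genes past the threshold numbered 1 with no filter and 0 in the other 5, against 5. Leaving out single libraries gave 0 to 2 members and 5 to 62 genes. Dropping both libraries richest in small RNA (wild-type 2 and HET 3) gave 3 members (Snord15a, Snord32a and Snord104) and 73 genes, and 12 members with a higher mean in place of 5 (4 to 9 without single libraries). Differences of Snord15b (0.045) and Snord22 (0.16) turned positive there. Leaving out single libraries moved Snord15b from -0.14 to 0.15, Snord17 from -0.44 to 0.46 and Snord22 from -0.42 to 0.25. Snord8 stayed lower in 15 of 15 alternatives, which follows from its values of 0 in every HET library. In all alternatives but the one with no filter it had only the exact permutation test. That test cannot go below 0.1, so Snord8 could not pass there. With no filter the unadjusted limma p of Snord8 was 0.0025 (adjusted p = 0.97). Host and machinery genes gave 0 calls in each alternative. The summed FPKM of the members had a ratio of 1.01, and 0.81 to 1.26 without single libraries.

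With the replicate number as a block, 13 genes and 2 members (Snord15a and Snord104) passed. Deviations of same-numbered libraries correlated at -0.281, -0.517 and 0.140, so the numbers were not taken to pair the libraries. The 15 members of at most 17 reads each carry wide counting errors.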

Other observations

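Noncoding host genes of snoRNAs were also compared as RNAs in their own right. Of 15 listed, 10 were tested, 5 with a higher and 5 with a lower mean in HET libraries, and 0 passed (3 at an unadjusted p under 0.05, limma). Among those 10, the largest differences were those of Snhg11 (8.44 ± 0.90 against 5.55 ± 1.00 FPKM, log2 difference -0.53, limma adjusted p = 0.20) and Snhg20 (1.85 ± 0.17 against 1.31 ± 0.25 FPKM, -0.31, limma adjusted p = 0.70; SD, n = 3 each). Both were lower in every HET library than in any wild-type library. Groups did not overlap, in either direction, in 5.55% of all genes tested. The noncoding host of Snord49b, 2410006H16Rik, is not among the 15. It was higher in HET libraries, also without overlap (3.21 ± 0.48 against 4.22 ± 0.32 FPKM, 0.32, limma adjusted p = 0.90). Gas5, a growth-arrest noncoding RNA that carries many C/D box snoRNAs, stood at 7.59 ± 0.79 FPKM in wild-type libraries and 7.08 ± 1.06 FPKM in HET libraries (SD, n = 3 each). Snhg1, the host of Snord22, stood at 1.80 ± 0.21 and 2.32 ± 0.58 FPKM (limma adjusted p = 0.90). Snhg12, the host of Snord99, stood at 2.40 ± 0.43 and 2.97 ± 0.21 FPKM with groups that did not overlap (limma adjusted p = 0.90), while Snord99 had 0, 0 and 1 reads in wild type and 0, 1 and 1 reads in HET libraries.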
